A study of Mus musculus with 10 samples.

Results

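The lysosome is the acidic compartment in which macrophages degrade what they take up. A proton-pumping vacuolar ATPase in its membrane keeps it acidic, soluble hydrolases inside it cut lipids, glycans and proteins, and membrane proteins protect the wall and carry the products out. Many of its genes are known to be driven together by TFEB, TFE3 and MITF, related transcription factors whose entry into the nucleus is controlled by nutrient sensing on the lysosome surface, and inherited loss of single hydrolases causes lysosomal storage diseases.

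RNA-seq compared 43 such genes, given as a list of lysosome genes with the cathepsins left out, between macrophages sorted from lung metastases and from normal lungs. All 43 were among the 24538 genes counted, and all 43 were among the 11571 tested. Metastasis-associated macrophages (MAMs, 5 libraries) were CD11B+CD11C- cells of small metastases dissected and pooled from several mice, seeded in female C57BL6/J wild-type mice by tail vein injection of E0771-LG, a mouse mammary tumour line. The labels give 6 to 8 weeks as the age at injection and 2 to 4 mice as the pool of each MAM library. Resident alveolar macrophages (RAMs, 5 libraries) were CD11C+CD11B- cells from normal lungs of the same strain and sex with no tumour cells injected. Both were also CD45+, F4/80+, LY6C- and MRC1+ with high forward scatter, the age label was 8-10 weeks, and the labels give neither group a transgene or drug, although transcription inhibitors were present while the tissue was digested. The comparison therefore joins a change of tissue with a change of macrophage type, and these cannot be told apart. In bulk RNA from sorted cells, fewer cells of a type and less RNA per cell cannot be told apart either. The labels do not say whether the libraries of a group came from separate experiments, and the p-values then measure only the spread between these libraries.

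Between 55391447 and 87523247 reads per MAM library and between 50746305 and 72150650 per RAM library were counted on genes. Levels are given as CPM, the reads of a gene scaled to a common library size, or as FPKM, which also divide by transcript length and so allow genes to be compared. Monocyte-derived macrophage markers (8 of 8 in the files) had summed CPM of 7299 to 8082 in the MAM libraries and 291.7 to 400.1 in the RAM libraries, and alveolar macrophage markers (9 of 9) had 462.5 to 650.7 and 9106 to 11410. Each of these lists holds the gene of a sorting marker. Itgam (CD11B) averaged 5003 CPM in MAMs and 59.5 in RAMs, and Itgax (CD11C) 136 and 918, so both sums partly restate the sort. Epithelial and tumour cell markers (8 of 8) had 13.3 to 20.7 CPM in sum in MAMs and 555.5 to 677.1 in RAMs. The highest of them in RAMs were Krt19 (403 on average), Cdh1 (121) and Epcam (71.2), while Sftpc stood at 13.4. Krt8 (1.18 in MAMs, 0.0429 in RAMs) and Krt18 (1.40 and 0.109) went the other way. Stromal and endothelial markers (7 of 7) stood at 32.9 to 65.0 and 116 to 195, neutrophil markers (8 of 8, Elane at 0) at 80.4 to 204 and 85.7 to 109, dendritic cell markers (6 of 6) at 2.78 to 11.0 and 15.7 to 24.0, and lymphocyte markers (7 of 8) at 3.98 to 14.7 and 3.53 to 17.2. Vwf made up most of the stromal and endothelial sum in RAMs (140 CPM, 15.5 in MAMs). All other markers of that list, among them Pecam1 (13.4 in MAMs, 2.12 in RAMs), were higher in MAMs. Clec9a (17.9 in RAMs, 0.804 in MAMs) likewise made up most of the dendritic cell sum in RAMs, and most other markers of its list were higher in MAMs. These sums differed between the groups for several lists, and their part in the results was not tested.

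MAMs and RAMs spent a like share of their gene counts on the 43 genes, 1.69% ± 0.0252 in MAMs and 1.63% ± 0.0769 in RAMs (SD, n = 5), with overlapping libraries, but spread it differently. Without Atp6v0d2 the shares were 1.69% ± 0.0251 and 1.47% ± 0.0721, with no overlap. These shares are of raw counts, before normalization. Summed FPKM of the 43 genes, Atp6v0d2 included, were 7949 to 8263 in the MAM libraries and 6219 to 7194 in the RAM libraries, without overlap. Whether the totals were alike therefore depended on the measure. On normalized counts 33 of the 43 (76.7%) differed at an adjusted p below 0.05 (quasi-likelihood fit in edgeR, Benjamini-Hochberg over all genes tested), 19 higher and 14 lower in MAMs, while 10 did not pass this limit. A log2 fold change is the level in MAMs over that in RAMs on a log2 scale, so 1 is 2-fold higher and -1 is 2-fold lower in MAMs. Among all genes tested 56.2% passed, 28.9% higher and 27.3% lower, so that differing at all was common in this comparison. Past a 2-fold difference there were 8 genes higher and 6 lower in MAMs, against 15.3% and 15.1% of all genes (5 and 6 genes under upper-quartile scaling). The libraries of the groups did not overlap for 31 of the 43 genes, against 44.9% of all genes. The median absolute log2 fold change was 0.63 for the 43 genes and 0.56 for all genes, and the median with its sign was 0.10 and -0.02. Under upper-quartile scaling, which lowered the median of all genes by 0.16 on the log2 scale, 16 of the 43 were higher and 18 lower, so the direction of the set as a whole depended on the scaling; no gene past 2-fold changed direction or rose above an adjusted p of 0.05 under any scaling. Individual differences ran from -5.08 for Atp6v0d2 to 4.00 for Sgsh. Of the 43, Sgsh alone entered the test through MAMs only (a mean FPKM of at least 1 was needed in either group), so it had to differ.

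**Figure D1:**
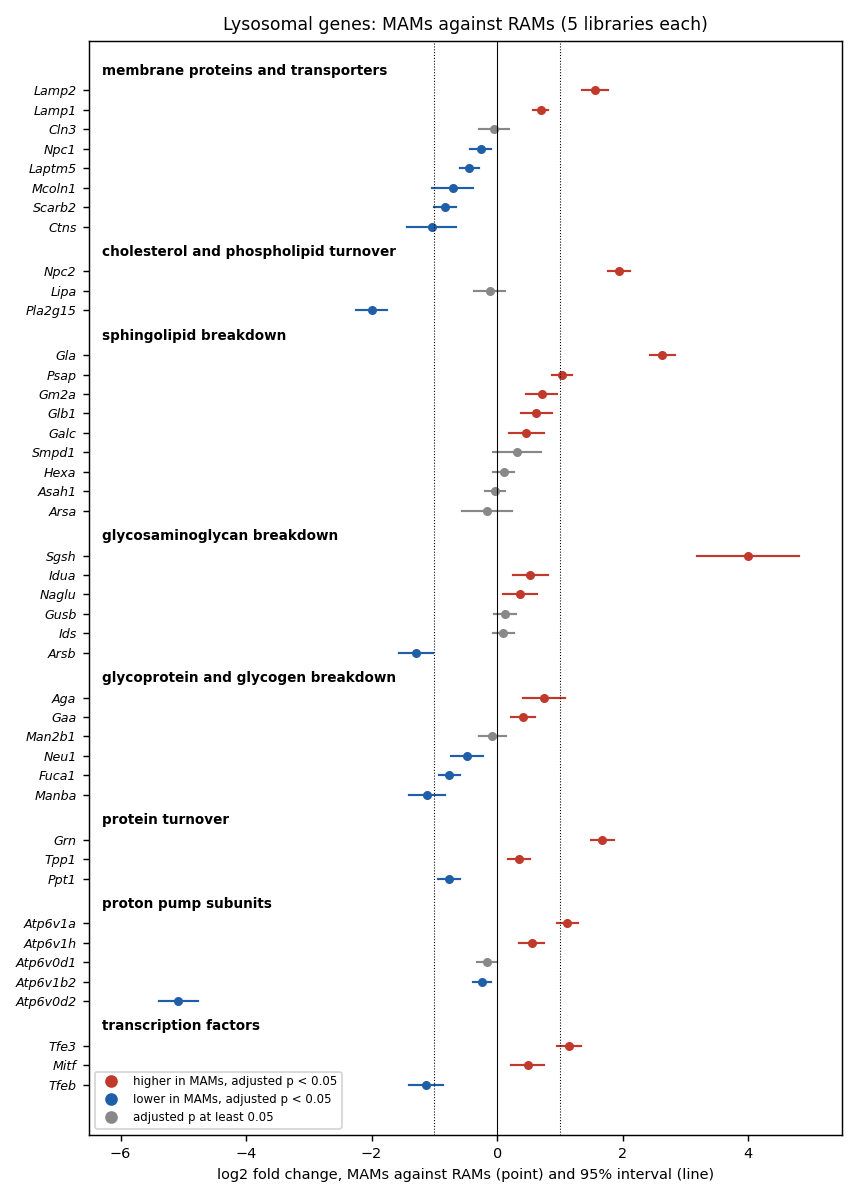
Log2 fold change of each of the 43 lysosomal genes in MAMs against RAMs (horizontal axis; point, estimate; line, 95% interval; 5 libraries a group), grouped by role, with dotted lines at 2-fold. Atp6v0d2 at -5.08 and Sgsh at 4.00 lie at the ends, each role list except sphingolipid breakdown holds genes that passed in both directions, and 10 genes in grey did not pass.

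Grn, Psap, Laptm5 and Lamp1 were among the 5 highest of the 43 genes per transcript length in both cell types, joined by Lamp2 in MAMs and by Atp6v0d2 in RAMs. In MAMs the highest mean levels were Grn at 1444 ± 58.6 FPKM, Psap at 1121 ± 83.3, Laptm5 at 1103 ± 64.8 and Lamp1 at 822 ± 18.7 (SD, n = 5). In RAMs they were Laptm5 at 1557 ± 151 FPKM, Atp6v0d2 at 608 ± 50.9, Psap at 568 ± 52.5 and Lamp1 at 520.2 ± 29.5. In RAMs Atp6v0d2, Psap and Lamp1 lay within 1 SD of the next in order, as did Psap and Laptm5 in MAMs, so those neighbours have no firm order. Atp6v0d2 was the 75th most abundant transcript of all genes tested in RAMs and the 3879th in MAMs. The 43 genes varied less between libraries of a group than most genes did, with a median coefficient of variation of 10.5% in MAMs and 9.35% in RAMs, against 19.5% and 16.3% over all genes tested, which include many at low counts.

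**Figure D2:**
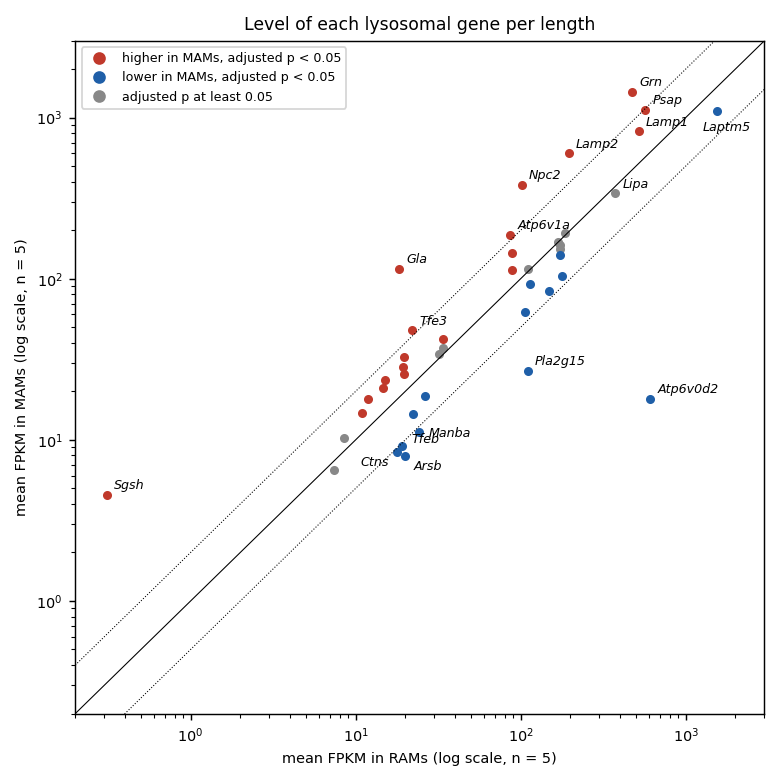
Mean FPKM of each of the 43 genes in RAMs (horizontal) and MAMs (vertical), both log scales, 5 libraries each. The solid line marks equal levels and the dotted lines 2-fold; Atp6v0d2 and Pla2g15 lie far below the lines, Sgsh and Gla far above, and Lipa is close to equality.

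The 8 genes of membrane proteins and transporters differed in both directions, 2 higher and 5 lower in MAMs, with 1 that did not pass. The most abundant proteins of the lysosomal wall are the glycoproteins LAMP1 and LAMP2, and both genes were higher in MAMs. Lamp2, whose splice forms include the receptor of chaperone-mediated autophagy, had 1953, 1822, 1523, 1346 and 1471 CPM in the 5 MAM libraries and 529.6, 516, 576, 583 and 563 in the RAM libraries. The groups were far apart, with a log2 fold change of 1.55 ± 0.10 (SE), adjusted p = 2.39e-09. Lamp1 had 1739, 1752, 1689, 1641 and 1749 CPM in MAMs and 982, 1056, 1046, 1096 and 1128 in RAMs, again with no overlap and with a log2 fold change of 0.69 ± 0.06 (SE), adjusted p = 8.11e-08.

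Genes of other membrane proteins stood lower. Laptm5, a transmembrane protein of lysosomes in blood cells, gave the highest level per length of this list and was at 2656, 2492, 2292, 2348 and 2373 CPM in MAMs and 2903, 3342, 3200, 3610 and 3485 in RAMs. Every MAM library was below every RAM library, by a log2 fold change of -0.44 ± 0.07 (SE), adjusted p = 5.38e-05. Ctns encodes cystinosin, which exports cystine, and had 23.5, 28.6, 29.1, 41.2 and 16.9 CPM in MAMs against 59.7, 59.0, 55.5, 56.3 and 56.4 in RAMs. RAM libraries were nearly level and MAM libraries spread widely below them (log2 fold change -1.04 ± 0.18 (SE), adjusted p = 1.75e-04). Scarb2, the receptor that carries beta-glucocerebrosidase to the lysosome, had 469, 442, 389.8, 450.2 and 393 CPM in MAMs and 650.2, 858, 782, 779 and 744 in RAMs, lower in every MAM library (log2 fold change -0.83 ± 0.08 (SE), adjusted p = 5.67e-07). The calcium channel gene Mcoln1 (-0.71) and the cholesterol transporter gene Npc1 (-0.26) were lower in MAMs too, with no overlap. Cln3, a membrane protein lost in juvenile Batten disease, did not pass, with a log2 fold change of -0.05 and a 95% interval of -0.28 to 0.18; its exons overlap those of Apobr on the opposite strand, which was expressed at a like count, and the strand setting of the counting is not given in the sources used here.

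The proteins that handle cholesterol and phospholipid gave 3 different results: Npc2 was higher in MAMs, Pla2g15 lower, and Lipa did not pass, except as lower under upper-quartile scaling. Npc2 (chr12:84754562-84773152, minus strand, GRCm38 with GENCODE M21 gene models, as for all gene positions here), a soluble protein that binds cholesterol freed in the lumen and hands it to NPC1, had 1365, 1317, 1114, 1069 and 1267 CPM in MAMs and 327, 305, 298, 339 and 337 in RAMs. It was 3.82-fold higher in MAMs, with every MAM library above every RAM library (log2 fold change 1.93 ± 0.08 (SE), adjusted p = 2.67e-11), whereas Npc1, the membrane partner, stood at -0.26. Pla2g15 (chr8:106150399-106164715, plus strand), the lysosomal phospholipase A2 known for its role in alveolar macrophages, which degrade lung surfactant, had 57.7, 64.7, 77.3, 83.8 and 62.5 CPM in MAMs and 255, 319, 299.5, 242 and 265 in RAMs. MAM libraries were all lower, 3.99-fold on average (log2 fold change -2.00 ± 0.12 (SE), adjusted p = 9.60e-10). Lipa, the acid lipase that hydrolyses cholesteryl esters and triglycerides, had 1179, 1168, 1030, 967 and 994 CPM in MAMs and 1134, 906, 1024, 1282 and 1459 in RAMs. Those groups overlapped, and the log2 fold change of -0.12 had a 95% interval of -0.36 to 0.12 (adjusted p = 0.383).

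Of the 9 genes of sphingolipid breakdown, 5 were higher in MAMs, none was lower and 4 did not pass, while under upper-quartile scaling 4 were higher and Asah1 was lower. The share that passed, 55.6%, was close to the 56.2% of all genes. Gla (chrX:134588149-134601125, minus strand) encodes alpha-galactosidase A, which removes galactose from globotriaosylceramide and is lost in Fabry disease. It had 355, 387, 387, 424 and 366 CPM in MAMs and 58.5, 58.9, 62.8, 55.8 and 74.4 in RAMs. The groups were far apart, at 6.19-fold on average (log2 fold change 2.63 ± 0.09 (SE), adjusted p = 3.15e-12). Psap encodes the precursor of the saposins, which present sphingolipids to the hydrolases, and had 2472, 2562, 2794, 2867 and 2948 CPM in MAMs and 1360, 1246, 1188, 1346 and 1513 in RAMs. It was 2.05-fold higher with no overlap (log2 fold change 1.04 ± 0.08 (SE), adjusted p = 1.64e-08). Gm2a, the activator that lifts GM2 ganglioside to hexosaminidase, was higher by 0.71, Glb1 (beta-galactosidase) by 0.63 and Galc (galactosylceramidase) by 0.46 on the log2 scale, each with no overlap, although Galc did not pass under upper-quartile scaling. Exons of Glb1 are shared with Tmppe on the same strand, which was counted at a like level, so reads of the pair may have been split or dropped.

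The genes of this list that did not pass were Smpd1 (acid sphingomyelinase; 0.32), Hexa (the alpha chain of hexosaminidase; 0.10), Asah1 (acid ceramidase; -0.03) and Arsa (arylsulfatase A; -0.16). For Asah1, at 427 ± 17.1 CPM in MAMs and 437 ± 42.1 in RAMs (SD, n = 5), the 95% interval of -0.19 to 0.13 spans small differences only. Arsa and Smpd1, at about 20 CPM, had the wide intervals -0.55 to 0.24 and -0.06 to 0.70.

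Among the 6 genes that break down glycosaminoglycans, 3 were higher and 1 lower in MAMs (2 and 1 under upper-quartile scaling), and 2 did not pass. Sgsh (chr11:119343425-119355536, minus strand), a sulfamidase of heparan sulfate breakdown that is lost in Sanfilippo syndrome, had 13.4, 7.87, 14.4, 23.1 and 15.6 CPM in MAMs and 1.03, 1.58, 0.704, 0.772 and 0.533 in RAMs. Every MAM library was above every RAM library, 16.0-fold on average (log2 fold change 4.00 ± 0.38 (SE), adjusted p = 3.23e-07), on 420 to 1277 reads in MAM libraries and 25 to 105 in RAM libraries. Sgsh entered the test through MAMs only and had to differ, so its p-value is not separate evidence. The size depended on the processing, since limma gave 2.02 on log2(FPKM + 1) and 3.44 on log2(FPKM + 0.1). Its level stayed low even in MAMs, at 4.57 ± 1.88 FPKM, and Card14, whose exons overlap it on the opposite strand, was at 0.0745 CPM in MAMs and 0.00720 in RAMs. Idua, the alpha-iduronidase, had 58.5, 62.4, 84.0, 92.9 and 70.8 CPM in MAMs and 46.0, 49.9, 57.5, 49.8 and 52.5 in RAMs, higher in MAMs with the lowest MAM library only just above the highest RAM library (log2 fold change 0.53 ± 0.13 (SE), adjusted p = 0.00289).

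Arsb (chr13:93771630-93943016, plus strand), the sulfatase that acts on dermatan and chondroitin sulfate, went the other way at 29.0, 28.5, 38.0, 27.1 and 27.3 CPM in MAMs and 75.9, 74.3, 63.6, 65.0 and 87.2 in RAMs. It was 2.44-fold lower in MAMs, without overlap (log2 fold change -1.29 ± 0.13 (SE), adjusted p = 5.03e-07). Naglu, the N-acetylglucosaminidase of the heparan sulfate pathway, passed at a log2 fold change of 0.36 ± 0.12 (SE), adjusted p = 0.0213, but its libraries overlapped and the call was lost under upper-quartile scaling and when MAM replicate 3, RAM replicate 1 or RAM replicate 3 was left out (adjusted p = 0.0674, 0.0506 and 0.0535, edgeR). Gusb, beta-glucuronidase and the most abundant of this list per length, had 292, 298, 275, 251 and 322 CPM in MAMs and 269, 290.3, 261, 246 and 253 in RAMs, overlapping, with a log2 fold change of 0.12 (95% interval -0.05 to 0.29), and Ids, iduronate sulfatase, stood at 0.10 (-0.06 to 0.27).

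Glycoprotein and glycogen breakdown comprised 6 genes, 2 higher and 3 lower in MAMs (4 lower under upper-quartile scaling, with Man2b1). Lower were the genes of exoglycosidases that trim sugars from glycoproteins. Manba, beta-mannosidase, had 45.9, 47.8, 57.6, 32.7 and 41.9 CPM in MAMs and 103, 89.6, 88.4, 97.9 and 111 in RAMs. Fuca1, alpha-fucosidase, had 147, 148, 131, 159 and 149 CPM in MAMs and 275, 227, 246, 231 and 266 in RAMs. All MAM libraries lay below all RAM libraries for both, with log2 fold changes of -1.12 ± 0.13 (SE), adjusted p = 4.04e-06 for Manba and -0.76 ± 0.08 (SE), adjusted p = 8.39e-07 for Fuca1, and Neu1, the sialidase, was lower, at -0.47. Man2b1, the alpha-mannosidase and the most abundant of this list, had 831, 772, 599, 583 and 670.3 CPM in MAMs and 799.8, 675, 671, 719.7 and 789 in RAMs and overlapped, at -0.08 (95% interval -0.30 to 0.13).

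Higher in MAMs were Aga and Gaa. Aga encodes aspartylglucosaminidase, which splits the sugar from asparagine, and had 43.1, 28.6, 39.0, 36.4 and 44.0 CPM in MAMs and 20.7, 25.7, 17.8, 26.6 and 23.3 in RAMs. Gaa encodes the acid alpha-glucosidase that digests glycogen and is lost in Pompe disease, and had 114, 119, 117, 131 and 151 CPM in MAMs and 95.2, 93.8, 87.4, 99.7 and 98.6 in RAMs. Neither overlapped, and both differences were under 2-fold (log2 fold change 0.74 ± 0.16 (SE), adjusted p = 8.31e-04 for Aga and 0.41 ± 0.09 (SE), adjusted p = 0.00116 for Gaa).

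Each of the 3 protein turnover genes passed. Grn (chr11:102430315-102437048, plus strand) encodes progranulin, which is secreted, taken up and cut into granulins in the lysosome, and whose loss causes frontotemporal dementia or a storage disease. It had 2913, 2917, 2892, 3133 and 3181 CPM in MAMs and 850.2, 899, 836, 1139 and 984 in RAMs. Grn drew the most reads of the 43 genes in every MAM library, where Laptm5 did in every RAM library, and was 3.19-fold higher in MAMs without overlap (log2 fold change 1.68 ± 0.08 (SE), adjusted p = 1.97e-10). Tpp1, the tripeptidyl peptidase, had 386, 403, 428, 447 and 426 CPM in MAMs and 317, 300.2, 292, 382 and 351 in RAMs, with the groups only just apart (log2 fold change 0.35 ± 0.08 (SE), adjusted p = 0.00219); it did not pass under upper-quartile scaling. Ppt1, which removes palmitate from proteins, had 273, 303, 287, 293 and 273 CPM in MAMs and 519.7, 519.6, 529, 461 and 408 in RAMs. It was lower in every MAM library (log2 fold change -0.77 ± 0.08 (SE), adjusted p = 8.58e-07), and its exons overlap those of the more highly counted Cap1 on the opposite strand.

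**Figure D3:**
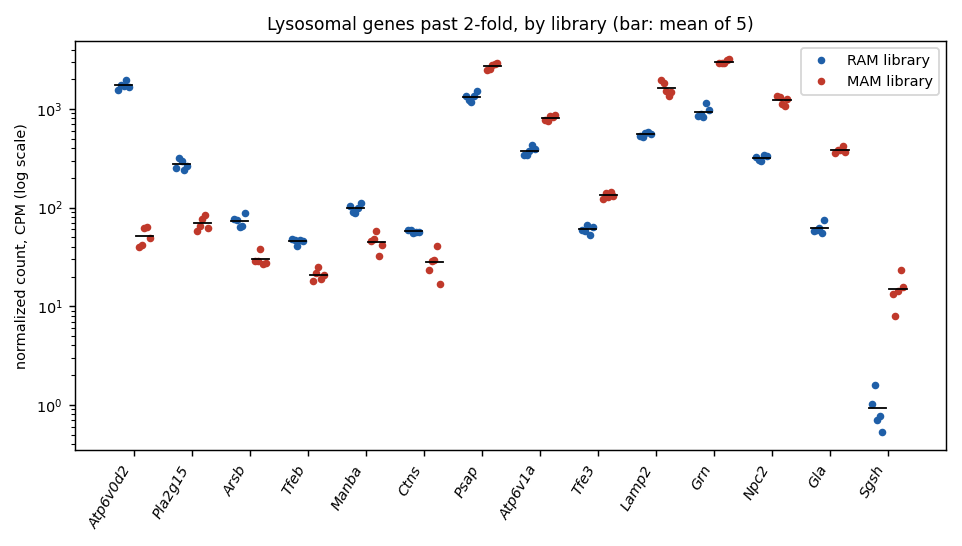
Normalized counts (CPM, log scale) of the 14 lysosomal genes that passed with more than a 2-fold difference, 1 point a library (RAM left, MAM right; bar, mean of 5). For none of them do the groups overlap, from Atp6v0d2 (1561 to 1978 in RAMs, 39.7 to 63.6 in MAMs) to Sgsh.

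A proton pump subunit showed the largest difference of the 43 genes. The vacuolar ATPase has a membrane sector, V0, through which protons pass, and a catalytic sector, V1, that consumes ATP, joined through a central stalk whose base is a d subunit encoded by Atp6v0d1 or Atp6v0d2. Atp6v0d1 is used in most cells, while Atp6v0d2 is known from osteoclasts, kidney and macrophages. Atp6v0d2 (chr4:19876841-19922605, minus strand) had 39.7, 41.8, 61.6, 63.6 and 49.3 CPM in MAMs and 1561, 1762, 1690, 1978 and 1664 in RAMs. It was 33.8-fold lower in MAMs (log2 fold change -5.08 ± 0.15 (SE), adjusted p = 3.83e-13). Atp6v0d1 did not pass, at 229 ± 9.98 CPM in MAMs and 256 ± 24.8 in RAMs (SD, n = 5; log2 fold change -0.16, adjusted p = 0.086), except as lower under upper-quartile scaling, at -0.33.

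Per length, Atp6v0d2 was thus the main d subunit transcript in RAMs and a minor one in MAMs. The FPKM of Atp6v0d2 was 0.0902, 0.0995, 0.142, 0.152 and 0.105 times that of Atp6v0d1 in the MAM libraries, and 3.47, 3.92, 3.63, 3.45 and 3.25 times in the RAM libraries. On the log2 scale the ratio differed by -4.94 between the groups, with SDs of 0.33 in MAMs and 0.10 in RAMs (n = 5). A two-sided exact permutation test gave p = 0.00794, which is the lowest value possible with 5 against 5 libraries. Atp6v0d2 alone already kept the groups far apart, so the test had to reach this value and adds no separate evidence. The ratio is taken within a library, so it does not depend on how libraries are scaled. The level in MAMs was set beside those of markers of the other cell type. As a share of all gene counts, Atp6v0d2 in MAMs was 2.57% of its level in RAMs, while the 9 alveolar macrophage markers ran from 0.968% (Car4) to 243% (Fabp5) with a median of 14.8%, 4 of them below Atp6v0d2 (Car4, Chil3, Siglecf and Ear2) and 5 above. The part of such cells in the level was not tested.

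The other pump subunits differed less. Atp6v1a, the catalytic A subunit, had 774, 757, 849, 837 and 876 CPM in MAMs and 342, 344, 374, 432 and 394 in RAMs, 2.17-fold higher in MAMs without overlap (log2 fold change 1.12 ± 0.08 (SE), adjusted p = 9.53e-09). Atp6v1h, the regulatory H subunit, had 79.6, 72.3, 68.5, 72.2 and 68.6 CPM in MAMs and 52.0, 46.7, 46.3, 53.8 and 48.0 in RAMs (log2 fold change 0.55 ± 0.09 (SE), adjusted p = 1.17e-04), also higher in every MAM library. Atp6v1b2, the B subunit that pairs with A in the V1 ring, had 406, 434, 401, 365 and 417 CPM in MAMs and 506, 492, 449, 478 and 470.0 in RAMs. It was slightly lower in MAMs, with no overlap (log2 fold change -0.24 ± 0.07 (SE), adjusted p = 0.00594), so that A and B transcripts, whose proteins form the ring in equal numbers, differed in opposite directions.

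The 3 transcription factor genes all passed, in both directions. Tfeb (chr17:47737030-47792419, plus strand) had 17.8, 21.8, 25.0, 19.0 and 20.8 CPM in MAMs and 47.7, 47.1, 41.2, 46.6 and 46.2 in RAMs, 2.19-fold lower in MAMs without overlap (log2 fold change -1.13 ± 0.12 (SE), adjusted p = 1.54e-06). Tfe3 (chrX:7762560-7775202, plus strand) had 123, 140.3, 128, 144 and 130.3 CPM in MAMs and 59.5, 57.6, 66.7, 53.3 and 63.6 in RAMs, 2.21-fold higher in MAMs without overlap (log2 fold change 1.15 ± 0.09 (SE), adjusted p = 2.91e-08). Mitf had 120.3, 127, 126, 94.9 and 124 CPM in MAMs and 66.9, 81.8, 78.7, 105 and 89.9 in RAMs. It was higher in MAMs on average (log2 fold change 0.49 ± 0.12 (SE), adjusted p = 0.00302), but MAM replicate 4 fell below RAM replicate 4, so those groups overlapped. In summed FPKM of the 3 genes, Tfeb made up 11.6% ± 1.78 in MAMs and 34.4% ± 3.40 in RAMs (SD, n = 5), Tfe3 61.4% ± 3.54 and 39.3% ± 3.52, and Mitf 27.0% ± 3.26 and 26.2% ± 2.78. The sum itself was 78.1 ± 4.78 FPKM in MAMs and 55.8 ± 2.78 in RAMs. Levels of mRNA do not show how much of these proteins was in the nucleus, where they act.

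**Figure D4:**
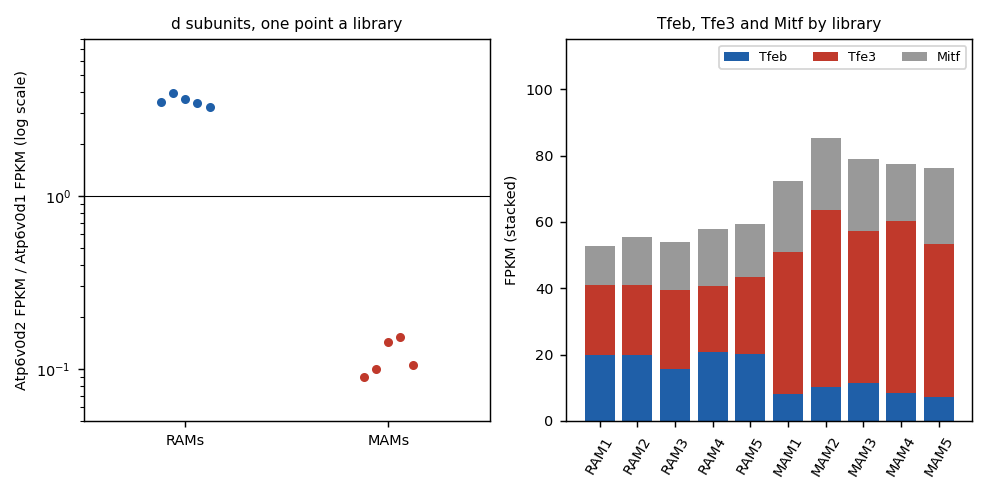
Left, FPKM of Atp6v0d2 divided by that of Atp6v0d1 in each library (log scale; line at 1): RAM libraries lie between 3.25 and 3.92 and MAM libraries between 0.0902 and 0.152. Right, FPKM of Tfeb, Tfe3 and Mitf stacked for each library; Tfe3 takes 61.4% on average in MAMs and 39.3% in RAMs.

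TFEB and its relatives are known to bind the sequence GTCACGTG, which holds the E-box CACGTG, near the start of many lysosomal genes. RefSeq promoter windows (GRCm38.p6; 250 bases before to 50 after the annotated start) were at hand for 37 of the 43 genes and not for Asah1, Aga, Npc1, Atp6v1h, Atp6v0d2 and Atp6v1b2. GTCACGTG or its reverse complement CACGTGAC occurred in a window of 9 of the 37 genes (24.3%) and of 2.55% of all 27025 genes with a window, and the E-box CACGTG, counted with those that lie inside the longer sequence, in 11 (29.7%) and 8.09%. Of the 9, Gla, Glb1, Lamp1, Naglu and Sgsh were higher in MAMs, Mcoln1 was lower, and Arsa, Atp6v0d1 and Cln3 did not pass. Of the 28 genes with a window and without the 8 bases, 12 were higher, 10 lower and 6 did not pass. Under upper-quartile scaling, 4 of the 9 were higher and 2 lower, and 10 of the 28 were higher and 12 lower. A match is only a match of letters. The 27025 genes include many that were not tested here, whereas the 37 all were. The 37 were also listed as lysosome genes, a class known to carry the sequence, so the higher share is not a result of these data. The 250 bases before the start are shown for 5 genes that carry it and differ in outcome, read 5′ to 3′ on the strand of the gene, with the 8 bases in capitals (in Cln3, both readings overlap in 1 run of capitals; in Mcoln1 they occur at 2 places). They are Gla (chrX:134601006-134601255, minus strand), Sgsh (chr11:119355511-119355760, minus strand), Lamp1 (chr8:13158911-13159160, plus strand), Mcoln1 (chr8:3500269-3500518, plus strand) and Cln3 (chr7:126583237-126583486, minus strand).
Gla: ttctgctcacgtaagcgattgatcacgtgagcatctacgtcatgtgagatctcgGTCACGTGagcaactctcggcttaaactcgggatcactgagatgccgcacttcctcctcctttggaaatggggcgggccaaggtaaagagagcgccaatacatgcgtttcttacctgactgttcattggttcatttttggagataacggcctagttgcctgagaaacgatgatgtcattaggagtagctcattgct
Sgsh: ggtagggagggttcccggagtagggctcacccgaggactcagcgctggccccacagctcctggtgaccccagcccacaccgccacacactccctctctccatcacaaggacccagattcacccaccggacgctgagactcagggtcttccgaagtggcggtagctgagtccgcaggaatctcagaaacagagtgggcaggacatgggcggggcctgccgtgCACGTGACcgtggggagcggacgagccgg
Lamp1: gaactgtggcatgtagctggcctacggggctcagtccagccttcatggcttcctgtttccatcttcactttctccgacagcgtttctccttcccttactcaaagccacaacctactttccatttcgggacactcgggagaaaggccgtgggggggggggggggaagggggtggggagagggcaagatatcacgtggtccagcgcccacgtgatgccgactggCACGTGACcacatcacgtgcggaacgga
Mcoln1: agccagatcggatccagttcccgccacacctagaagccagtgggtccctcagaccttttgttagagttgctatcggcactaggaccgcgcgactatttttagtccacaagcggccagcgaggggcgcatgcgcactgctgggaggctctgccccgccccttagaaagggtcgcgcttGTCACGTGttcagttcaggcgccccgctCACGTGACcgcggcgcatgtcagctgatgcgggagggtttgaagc
Cln3: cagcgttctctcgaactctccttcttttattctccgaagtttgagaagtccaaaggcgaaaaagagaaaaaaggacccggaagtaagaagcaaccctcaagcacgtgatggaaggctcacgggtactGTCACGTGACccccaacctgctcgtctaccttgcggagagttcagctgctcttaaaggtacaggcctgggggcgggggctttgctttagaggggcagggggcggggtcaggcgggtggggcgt
The first base of the match lay 196 bases before the RefSeq start in Gla, 29 in Sgsh, 28 in Lamp1, and 73 and 45 in Mcoln1. Log2 fold changes beside them were 2.63, 4.00, 0.69, -0.71 and, for Cln3, -0.05. These distances depend on the annotation. The GENCODE gene start was the same as RefSeq's in Lamp1 but lay upstream of it by 26 bases in Sgsh, 62 in Mcoln1, 120 in Gla and 2581 in Cln3, so that 1 of the matches in Mcoln1 and those in Cln3 fell after the GENCODE start.

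The rest of the organelle was read from 82 other lysosome genes in 5 lists, of which 79 were tested (Atp6v0e2, Rnaset2a and Lamp3 were not). In MAMs 40 were higher and 16 lower, 16 and 5 of them past 2-fold, while 23 did not pass. The share that passed was 70.9%, against 56.2% of all genes, and 26.6% against 30.3% passed with more than 2-fold. By list, 53.85% of the pump subunits passed, 85.7% of the soluble hydrolases and 75.0% of the membrane proteins. For tagging and sorting it was 77.8%, and for nutrient sensing and TFEB control 56.25%. Hyal1, Igf2r and Rragd entered the test through MAMs only and had to differ. The median log2 fold change was 0.33. Under upper-quartile scaling 30 were higher and 21 lower, with a median of 0.16. Among the 13 other pump subunits 7 were higher and none was lower (4 and 1 under upper-quartile scaling), led by Tcirg1, the a3 subunit of lysosomes (0.84 ± 0.11 (SE), adjusted p = 1.13e-05), and Atp6v0a2, the a2 subunit (0.77 ± 0.13 (SE), adjusted p = 8.80e-05), both under 2-fold. Atp6v0c, the ring that carries the protons, was listed at 117 ± 18.6 FPKM in MAMs and 44.3 ± 9.01 in RAMs (SD, n = 5), but had only 0 to 5 counted reads per library, so the deposited counts do not measure it. It is still counted in the 13, in the 53.85% and among the 23 that did not pass, which for this gene is not a result.

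Of the 21 other soluble hydrolases 12 were higher and 6 lower (11 and 6 under upper-quartile scaling). Plbd1, a phospholipase B-like protein, had 273, 255, 244, 328 and 295 CPM in MAMs and 6.93, 7.76, 7.91, 5.66 and 7.78 in RAMs. Hyal1, a hyaluronidase, had 10.9, 22.1, 38.8, 59.5 and 32.9 CPM in MAMs and 1.16, 1.40, 2.88, 0.647 and 1.04 in RAMs. Neither overlapped, and the log2 fold changes were 5.27 ± 0.13 (SE), adjusted p = 5.52e-14 for Plbd1 and 4.52 ± 0.48 (SE), adjusted p = 9.71e-07 for Hyal1, although Hyal1 varied several-fold between MAM libraries. Hyal1 entered the test through MAMs only and had to differ, so its p-value is not separate evidence. Naaa, which hydrolyses N-acylethanolamines such as palmitoylethanolamide, was lower in MAMs (-1.27 ± 0.11 (SE), adjusted p = 1.47e-07).

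Other membrane proteins counted 20 genes, 11 higher and 4 lower (8 and 6 under upper-quartile scaling). Slc11a1, known as NRAMP1, exports divalent metals from the phagosome and had 456, 494, 502, 474 and 437 CPM in MAMs and 5.41, 5.63, 4.22, 11.6 and 8.78 in RAMs, 66.5-fold higher in MAMs without overlap (log2 fold change 6.05 ± 0.24 (SE), adjusted p = 1.59e-11). Cd63, a tetraspanin of late endosomes, was higher by 2.69 on the log2 scale (adjusted p = 3.60e-08). Laptm4b, a relative of Laptm5, and Abca2, a lipid transporter of endolysosomes, were lower in MAMs, at -2.78 and -2.18.

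Among the genes that deliver hydrolases, Igf2r was far higher and Sort1 far lower in MAMs. Newly made hydrolases are tagged with mannose 6-phosphate and carried from the Golgi by the receptors encoded by M6pr and Igf2r, while sortilin, encoded by Sort1, carries prosaposin and progranulin without the tag. Igf2r (chr17:12682406-12769664, minus strand) had 346, 331, 370.0, 303 and 383 CPM in MAMs and 3.51, 5.54, 3.50, 6.20 and 4.62 in RAMs. Sort1 (chr3:108284082-108361511, plus strand) had 68.8, 67.2, 70.6, 55.1 and 70.2 CPM in MAMs and 1617, 1729, 1690, 1599 and 1491 in RAMs. The groups were far apart for both and in opposite directions, with log2 fold changes of 6.21 ± 0.17 (SE), adjusted p = 2.29e-13 for Igf2r and -4.61 ± 0.09 (SE), adjusted p = 5.48e-15 for Sort1. Igf2r entered the test through MAMs only and had to differ, so its p-value is not separate evidence. Igf2r in RAMs was at 1.56% of its level in MAMs as a share of all gene counts, where the 8 monocyte-derived macrophage markers ran from 1.04% (C1qa) to 28.7% (Csf1r) with a median of 2.30%, and Sort1 in MAMs was at 3.52% of its level in RAMs. M6pr, the other tag receptor, was only slightly lower in MAMs (-0.19 ± 0.07 (SE), adjusted p = 0.028). Across the 9 genes of tagging and sorting 2 were higher and 5 lower (1 and 6 under upper-quartile scaling), with Gga1, a Golgi adaptor, higher (0.35, a call lost under that scaling) and Nagpa, the uncovering enzyme that exposes the tag, lower (-0.72). Psap and Grn, whose proteins sortilin carries, were higher in MAMs by 1.04 and 1.68, in the cells where Sort1 was lower.

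Among the 16 genes of nutrient sensing and TFEB control, 8 were higher and 1 was lower (6 and 2 under upper-quartile scaling). The share that passed was close to that of all genes. Rragd, a Rag GTPase, had 8.93, 7.68, 10.7, 4.40 and 6.95 CPM in MAMs and 0.702, 0.0601, 1.91, 1.38 and 1.02 in RAMs, without overlap but at low counts (log2 fold change 2.93 ± 0.62 (SE), adjusted p = 8.39e-04). Rragd entered the test through MAMs only and had to differ, so its p-value is not separate evidence. Fnip2, which acts with folliculin on the Rag GTPases, had 411, 467, 595, 699 and 586 CPM in MAMs and 163, 172, 157, 236 and 184 in RAMs and did not overlap (log2 fold change 1.60 ± 0.14 (SE), adjusted p = 1.64e-07). Lamtor2, a part of the Ragulator anchor on the lysosome, was lower, at -0.66.

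**Figure D5:**
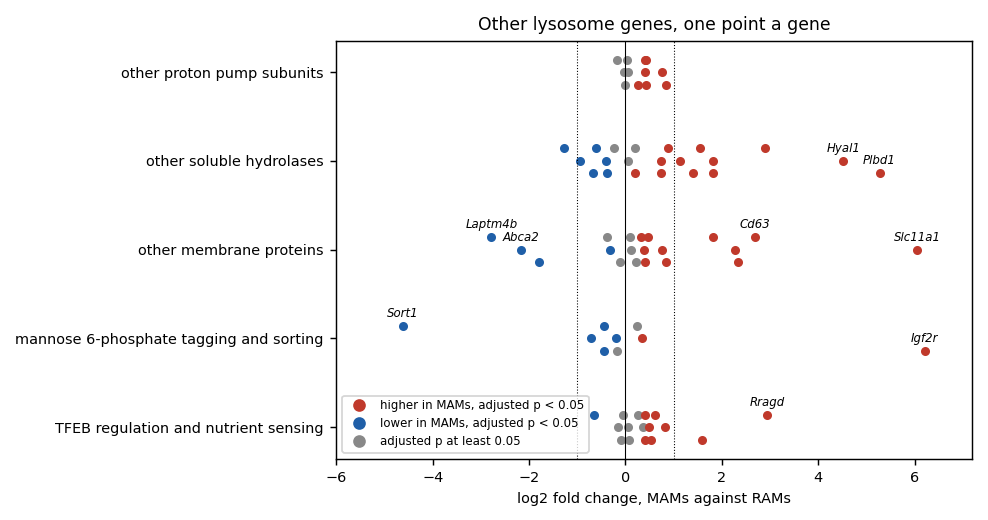
Log2 fold change in MAMs against RAMs of 78 other lysosome genes tested, 1 point a gene, in 5 lists (Atp6v0c is left out; vertical offsets within a list only separate points). Igf2r at 6.21 and Slc11a1 at 6.05 lie at the right end and Sort1 at -4.61 at the left, while no pump subunit plotted passes 2-fold.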

How the data were processed

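RNA-seq libraries were made with the Ovation RNA-Seq System V2. The authors aligned reads to GRCm38 with TopHat2 2.0.13, deposited raw counts per gene and library from HTSeq 0.6.1 on UCSC RefGene models, and deposited FPKM from Cufflinks 2.2.1, which scales by transcript length and depth. The strand setting is not given in the sources used here. Lines naming no gene held 56.5% ± 1.65 of the counts in MAMs and 63.2% ± 0.898 in RAMs (SD, n = 5) and were left out. Group and replicate came from the labels.

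The 11571 genes whose mean FPKM reached 1 in either group and that had any count were tested with edgeR 4.0.16 (R 4.3.3), TMM normalization and quasi-likelihood fit, with Benjamini-Hochberg adjustment over all of them. CPM are TMM-normalized, except for marker sums, percentages between groups and overlapping genes, which are scaled to all gene counts. Intervals are 95%. The 43 genes and all lists were chosen with earlier results of these data known. Values in every library are given, in each of 8 role lists, for the gene of highest FPKM and up to 2 passing genes with the largest differences each way (the transcription factors always), and genes are named likewise in 5 lists of other lysosome genes, where 1 gene so named is not reported here. Other genes at overlapping exons or as markers were chosen after their values were seen. Alternatives were RLE and upper-quartile scaling, DESeq2 1.42.0, edgeR's filterByExpr, no filter, a replicate block, limma 3.58.1 on log2(FPKM + 1) and log2(FPKM + 0.1), and leaving out each library. The fits were tested on simulated data. Positions came from GENCODE M21 on GRCm38 and sequences from RefSeq.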

Additional observations from a re-analysis of the deposited data

Results flagged for a closer look

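In 4 of 88 groups of 5 libraries, 1 library stood apart from the other 4 by a gap large against the whole range (Dixon's criterion), where about 4.4 are flagged by chance. MAM replicate 3 was highest for Arsb at 37.9 CPM, with the others at 27.1 to 29.0. RAM replicate 3 was lowest for Galc at 42.1 CPM (others 46.0 to 47.1) and for Tfeb at 41.2 CPM (others 46.3 to 47.7). MAM replicate 4 was lowest for Mitf at 94.9 CPM (others 120 to 127). Arsb, Galc, Tfeb and Mitf kept their direction and their call in edgeR without that library.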

How the results depend on the processing

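Over 18 alternatives, 31 of the 43 genes kept direction and call throughout, and of 774 values 756 did. Under upper-quartile scaling the genes past 2-fold and higher in MAMs numbered 5 in place of 8 (Psap, Atp6v1a and Tfe3 were at 0.87, 0.95 and 0.98), and the median of the 43 was -0.0614 in place of 0.10. That scaling shifts all genes together, and it turned Hexa (-0.0614), Ids (-0.0655) and Gusb (-0.0427), which passed in no setting. Cln3 turned with limma (0.0905 and 0.0927 with pseudocounts of 1 and 0.1) and ranged from -0.118 to 0.0215 over libraries left out, turning without MAM replicate 5, and Asah1 ranged from -0.0856 to 0.00879, turning without RAM replicate 4. Smpd1 passed without MAM replicate 1 (0.42). The median of the other lysosome genes was 0.16 under upper-quartile scaling, 0.28 with filterByExpr and 0.29 to 0.33 over libraries left out. The log2 ratio of Atp6v0d2 to Atp6v0d1 differed by -4.85 to -5.04 over libraries left out. Replicate numbers do not pair the libraries: correlations of same-numbered libraries were -0.0366 to 0.0294, and 2 of 5 MAM libraries correlated best with their own number. With a replicate block 19 genes were higher and 14 lower, 8 and 6 past 2-fold, the 43 had a median of 0.10, and the other genes 40 higher, 14 lower and a median of 0.32. Depth limits Sgsh in RAMs (25 to 105 reads), Hyal1 and Rragd.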
